A study of Mus musculus with 13 samples.

Results

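In mouse liver, the genes of protein folding and quality control in the endoplasmic reticulum (ER) were compared between continued high-fat feeding, canagliflozin and weight-matched caloric restriction. The set was a fixed list of 34 genes of ER chaperones, folding enzymes, ER-associated degradation and their regulators. The genes were listed by name, but with earlier results of these data known, so counts over the set are descriptions. For each gene, the probe set that names only that gene and has the highest mean over the 13 arrays was used, which gave 33 genes out of 22180 with such a probe set. Pdia4, a disulfide isomerase gene, was measured only by a probe set shared with a microRNA gene and was dropped. Sec61b, a subunit of the protein channel of the ER, averaged 3.61, 3.66 and 3.91 in the groups, below the limit for dim genes, and was not tested. The other 32 genes were among the 13308 genes tested.

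Liver RNA came from male C57Bl/6J mice on a diet with 60% fat from 6 weeks of age, and all groups had 4 weeks of it to become obese. In the next 4 weeks, the group HFD stayed on the diet (4 arrays). The group CANA had the diet with canagliflozin at 25 to 30 mg/kg (4 arrays). The group CR had its calories cut by 15 to 30% so that its weight matched CANA (5 arrays). Canagliflozin blocks SGLT2, the glucose transporter of the kidney tubule, so that glucose is lost in urine. No lean or chow-fed group is among the arrays, so every comparison is within diet-induced obesity, and whether each array stands for a separate animal is not stated. The p-values then measure the spread between these samples, which may in part be technical.

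Proteins that hepatocytes secrete, such as albumin and the apolipoproteins, enter the ER through the Sec61 channel and are folded there by chaperones, lectins, disulfide isomerases and prolyl isomerases. Chains that fail to fold are drawn back through the membrane and destroyed in the cytosol, which is called ER-associated degradation. When unfolded chains build up, the sensors IRE1 (gene Ern1), ATF6 and PERK start the unfolded protein response, in which spliced XBP1 and cleaved ATF6 switch on the genes of the folding and degradation machinery.

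The mean of hepatocyte markers was level over the arrays, while markers of Kupffer, sinusoidal endothelial and stellate cells differed between arrays. On the log2 scale, sinusoidal endothelial markers (8 genes) deviated from their gene means by -0.21 to 0.26 on average per array. Markers of stellate cells and fibroblasts (9 genes) deviated by -0.26 to 0.21. Kupffer cell markers are given by array beside the results. Values are log2 RMA values of the array probes, and array medians lay between 4.07 and 4.13. The mean of 9 hepatocyte markers lay between 12.46 and 12.61 on every array, though single markers varied more, such as Tat from 12.66 to 13.53. Markers of plasma and B cells and of pancreatic acinar cells, which are rich in ER chaperones, averaged 4.07 to 4.22 (10 genes) and 3.50 to 3.72 (11 genes) per array. Of the plasma and B cell markers, Ighm was the brightest, at 8.04 on average (7.83 to 8.35), while Jchain averaged 3.43, Tnfrsf17 2.61 and Mzb1 4.90. Liver is a mixed tissue, and in bulk RNA fewer cells of a type and less RNA per cell cannot be told apart. Precision is limited by the number of arrays, and array values carry no depth of reads.

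The promoters show a sequence shared by part of the set, and it is printed because it links genes of different roles. The ER stress response element (ERSE) is the letters CCAAT and CCACG with 9 bases between them, and it is known as the element through which ATF6 acts on chaperone genes. It was described on promoters of chaperone genes such as Hspa5, so its share in the set is a description. RefSeq promoter windows of build GRCm38.p6, from 250 bases before to 50 after a start, matched 29 of the 34 genes. Hyou1, Manf, Derl1, Atf6 and Sec61a1 had no window and were not searched. ERSE was found, on either strand, in 9 of these 29 genes (31.0%) and in 37 of 27025 genes with a window (0.137%). The 10 sites are given 5′ to 3′ on the strand that reads CCAAT first, with the 2 elements in capitals. In Calr, Derl3, Creld2 and the second site of Hsp90b1 that strand is opposite to the gene's.
Hspa5, chr2:34772025-34772043: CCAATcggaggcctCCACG
Hsp90b1, chr10:86705638-86705656: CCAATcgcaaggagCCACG
Hsp90b1, chr10:86705533-86705551: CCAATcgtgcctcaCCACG
Creld2, chr15:88819520-88819538: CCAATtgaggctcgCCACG
Dnajc3, chr14:118937827-118937845: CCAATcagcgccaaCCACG
Calr, chr8:84847075-84847093: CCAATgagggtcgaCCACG
Canx, chr11:50325800-50325818: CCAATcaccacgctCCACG
Pdia6, chr12:17266491-17266509: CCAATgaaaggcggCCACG
Derl3, chr10:75893242-75893260: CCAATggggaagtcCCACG
Syvn1, chr19:6046532-6046550: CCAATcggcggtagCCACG

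Of the other motifs searched on both strands, ERSE-II (ATTGG and CCACG with 1 base between) was found in Herpud1 and Dnajb11 (6.9% of the 29 genes, 0.0444% of all). UPRE (TGACGTGG) was found in Txndc5 (3.45%, 0.714% of all). The letters CCACG alone, which ERSE, ERSE-II and, on its other strand, UPRE also hold, were in 25 of the 29 genes (86.2%) and in 35.5% of all genes. A match is a description of these letters and not a shown binding site. The 250 bases before the start of 3 genes are printed for comparison: Hspa5 as the gene of the main chaperone, and Derl3 and Dnajb9 because they had the largest |t| in CANA against HFD, in opposite directions. They are read on the gene's strand, from chr2:34771840-34772089 (plus strand), chr10:75893148-75893397 (plus strand) and chr12:44210069-44210318 (minus strand). Capitals mark the ERSE in Hspa5 and Derl3, which in Derl3 reads as its reverse complement. In Dnajb9, where none of ERSE, ERSE-II and UPRE was found in the window, capitals mark CCACG.
Hspa5: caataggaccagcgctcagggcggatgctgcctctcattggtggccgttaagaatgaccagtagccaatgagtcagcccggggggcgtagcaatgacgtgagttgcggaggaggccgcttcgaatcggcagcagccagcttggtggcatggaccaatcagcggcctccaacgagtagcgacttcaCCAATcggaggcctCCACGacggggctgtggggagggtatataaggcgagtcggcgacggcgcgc
Derl3: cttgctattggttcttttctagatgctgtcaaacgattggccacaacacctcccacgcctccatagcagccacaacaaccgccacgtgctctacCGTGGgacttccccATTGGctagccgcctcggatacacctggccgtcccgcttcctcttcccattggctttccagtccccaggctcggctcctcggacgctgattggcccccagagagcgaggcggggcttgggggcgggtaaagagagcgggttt
Dnajb9: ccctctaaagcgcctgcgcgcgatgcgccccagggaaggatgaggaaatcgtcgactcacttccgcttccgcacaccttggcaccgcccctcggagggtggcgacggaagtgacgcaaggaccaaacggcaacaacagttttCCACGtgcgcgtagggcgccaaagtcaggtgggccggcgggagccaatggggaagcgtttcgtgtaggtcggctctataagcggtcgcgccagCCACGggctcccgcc

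The first comparison sets CANA against HFD, that is, the drug against the continued diet. The folding and degradation genes had lower means in CANA across most roles: 28 of the 32 tested were below zero, where 53.9% of all genes were, and their median difference was -0.24 on the log2 scale against -0.01 over all genes. Derl3, a membrane protein gene of ER-associated degradation, had the largest difference at -1.37, a level 2.58 times lower. Dnajb9, a co-chaperone gene of BiP, went the other way and was 1.66 times higher. No gene of the set passed the test: 0 of 32 had a limma adjusted p under 0.05, where 0.165% of all genes did, and the smallest adjusted p in the set was 0.156. At an unadjusted limma p under 0.05, a looser count added after the values were seen, 14 were lower (5.19% of all genes) and 2 higher, Dnajb9 and Pdia5 (3.63% of all genes).

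Without CANA replicate 3 the 14 became 5, and without HFD replicate 1 they became 8, while the median was -0.18 and -0.21. Serial numbers in the labels fall into 1 to 8 and 9 to 14, and every group has arrays in both. The HFD arrays have serial numbers 2, 5, 10 and 13 and the CANA arrays 1, 4, 9 and 12, so each set holds few arrays of a group. Within the sets 27 and 28 of the genes were below zero, with medians of -0.21 and -0.28.

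**Figure D1:**
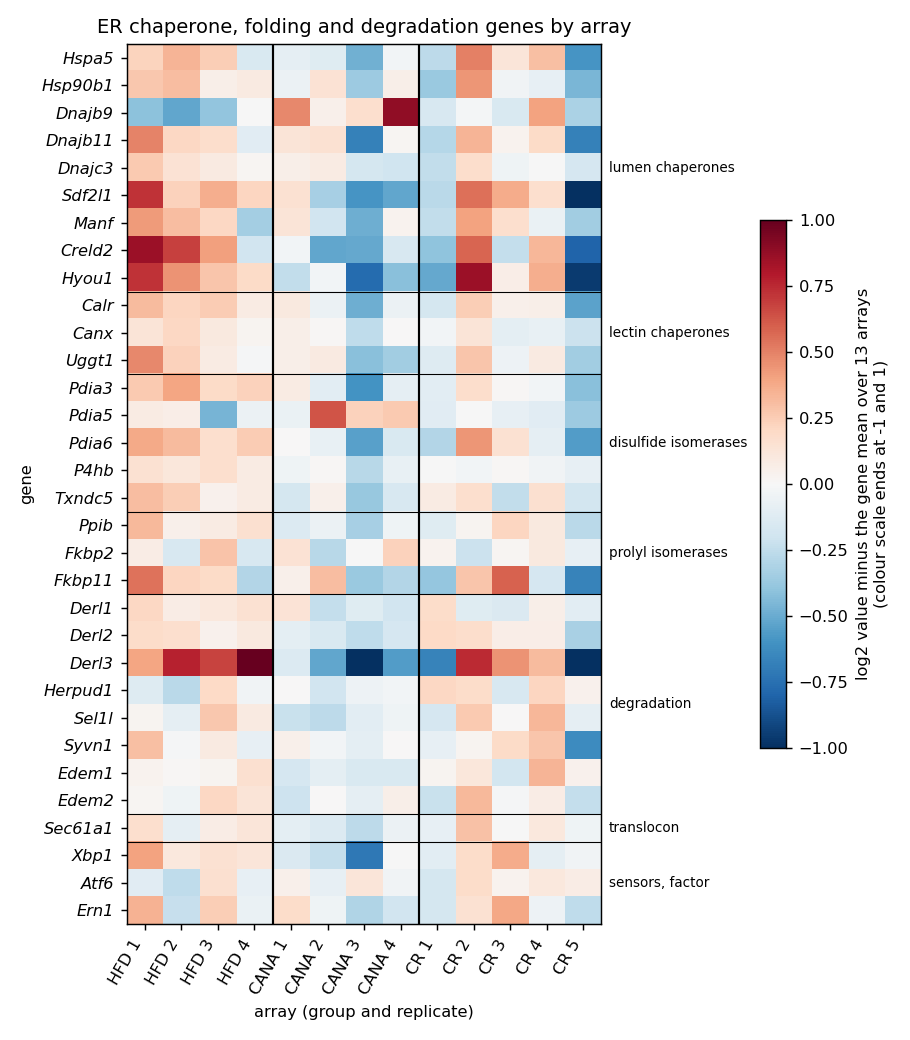
Deviation of each of the 32 tested genes (rows, ordered by role) from its own mean over 13 arrays, on the log2 scale, with arrays in columns and a colour scale that ends at -1 and 1. HFD columns are mostly red, and CANA replicate 3 and CR replicate 5 are blue in 29 of 32 genes each. Dnajb9 is below its mean in all HFD columns and above it in all CANA columns, but blue like most rows in CR replicate 5.

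Among the chaperones of the ER lumen, 8 of 9 genes had a lower mean in CANA than in HFD, with a median of -0.28. Hyou1, a large chaperone that acts as a nucleotide exchange factor for BiP, was at 9.51, 9.23, 9.06 and 8.98 in HFD and at 8.54, 8.76, 8.01 and 8.36 in CANA. All CANA arrays lay below all HFD arrays. Its difference was -0.78 (SE 0.29, 95% interval -1.39 to -0.16, limma adjusted p = 0.418). In CR, Hyou1 ranged more widely, at 8.27, 9.64, 8.85, 9.14 and 7.82, so that CR held both the highest and the lowest of the 13 values.

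Sdf2l1, a partner of ER-lumen DnaJ proteins, was at 7.79, 7.30, 7.43 and 7.29 in HFD and at 7.23, 6.74, 6.48 and 6.55 in CANA. The groups did not overlap, but CANA replicate 1 lay just under the lowest HFD array. The difference was -0.70 (SE 0.27, limma adjusted p = 0.438). The CR arrays were at 6.80, 7.62, 7.44, 7.24 and 6.01. Creld2, an ER-resident protein gene known as a target of the unfolded protein response, was at 9.15, 8.97, 8.70 and 8.10 in HFD and at 8.26, 7.78, 7.78 and 8.13 in CANA. HFD replicate 4 lay within the CANA range, so the groups overlapped. The difference was -0.74 (SE 0.27, limma adjusted p = 0.392).

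Dnajb9 (ERdj4) is a DnaJ co-chaperone of BiP that keeps IRE1 inactive. It was at 7.46, 7.35, 7.48 and 7.87 in HFD and at 8.36, 7.92, 8.04 and 8.76 in CANA. Every CANA array lay above every HFD array, and Dnajb9 was the 1 gene of the set with this pattern, which 2.13% of all genes had. Its difference was 0.73 (SE 0.18, 95% interval 0.34 to 1.11, limma adjusted p = 0.156). Over 29 alternative settings the difference ranged from 0.57 to 0.84 and its adjusted p from 0.0283 to 0.488. In CR, Dnajb9 was at 7.71, 7.85, 7.72, 8.28 and 7.55, so that 4 CR arrays lay within the HFD range and CR replicate 4 within the CANA range. The other BiP co-chaperones did not share its direction. Dnajb11 averaged 8.12 ± 0.25 in HFD and 7.84 ± 0.39 in CANA, and Dnajc3 9.90 ± 0.10 and 9.71 ± 0.15 (SD, n = 4 and 4).

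Hspa5 itself, the gene of the Hsp70 chaperone BiP, averaged 8.48 ± 0.22, 8.14 ± 0.20 and 8.33 ± 0.44 in HFD, CANA and CR (SD, n = 4, 4 and 5). The difference CANA minus HFD, -0.34 (95% interval -0.76 to 0.07) did not pass (limma adjusted p = 0.658). Hsp90b1, the Hsp90 of the ER lumen, averaged 11.41 ± 0.13, 11.18 ± 0.22 and 11.13 ± 0.35, and Manf, a small secreted ER stress protein, 5.71 ± 0.34, 5.43 ± 0.27 and 5.54 ± 0.31 in the same order. Both had lower means in CANA and in CR than in HFD, and their 95% intervals reached past zero.

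All 3 genes of the lectin cycle, which holds glycoproteins until they are folded, had lower means in CANA, with a median of -0.34. Calr, the soluble lectin calreticulin, was at 11.19, 11.09, 11.13 and 10.96 in HFD, at 10.97, 10.82, 10.39 and 10.82 in CANA and at 10.70, 11.12, 10.93, 10.93 and 10.34 in CR. CANA replicate 1 was level with HFD replicate 4, and the lowest values were those of CR replicate 5 and CANA replicate 3. The difference CANA minus HFD was -0.34 (SE 0.15, limma adjusted p = 0.536). Canx, the membrane-bound lectin calnexin, averaged 10.86 ± 0.08, 10.70 ± 0.14 and 10.69 ± 0.13 in HFD, CANA and CR. Uggt1, the sensor that returns misfolded glycoproteins to these lectins, averaged 7.74 ± 0.21, 7.38 ± 0.27 and 7.51 ± 0.23 (SD, n = 4, 4 and 5).

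Disulfide isomerases form and reshuffle disulfide bonds, and 4 of the 5 tested had a lower mean in CANA. Pdia3 (ERp57), which works with the lectins, was at 10.29, 10.43, 10.22 and 10.26 in HFD and at 10.11, 9.92, 9.43 and 9.93 in CANA. The groups did not overlap, and CANA replicate 3 was lowest. The difference was -0.45 (SE 0.14, 95% interval -0.75 to -0.15, limma adjusted p = 0.288). Pdia6, which reduces disulfides and binds IRE1, was at 10.17, 10.11, 9.96 and 10.05 in HFD and at 9.80, 9.72, 9.25 and 9.64 in CANA. These groups did not overlap either, and the difference was -0.47 (SE 0.17, limma adjusted p = 0.411).

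P4hb, the classical protein disulfide isomerase and a subunit of the triglyceride transfer protein complex that loads apolipoprotein B, was at 11.21, 11.17, 11.23 and 11.15 in HFD and at 11.02, 11.08, 10.79 and 10.99 in CANA. Its HFD arrays lay close together (SD 0.04), and the groups did not overlap. The difference was small, at -0.22 (SE 0.08, limma adjusted p = 0.414). Txndc5 was at 8.69, 8.63, 8.43 and 8.46 in HFD and at 8.21, 8.44, 8.01 and 8.22 in CANA, with CANA replicate 2 inside the HFD range. Its difference was -0.34 (SE 0.12, limma adjusted p = 0.393).

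Pdia5 was the isomerase with the opposite sign. It was at 8.27, 8.25, 7.72 and 8.13 in HFD and at 8.12, 8.82, 8.42 and 8.46 in CANA. CANA replicates 2, 3 and 4 lay above all HFD arrays and CANA replicate 1 among them. The difference was 0.36 (SE 0.15, 95% interval 0.05 to 0.67, limma adjusted p = 0.478).

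Of the prolyl isomerases, which turn proline bonds in folding chains, Ppib (cyclophilin B) was at 10.01, 9.74, 9.77 and 9.85 in HFD and at 9.56, 9.63, 9.35 and 9.65 in CANA. The groups did not overlap, and the difference was -0.30 (SE 0.11, limma adjusted p = 0.427). Fkbp11 averaged 6.61 ± 0.35, 6.37 ± 0.32 and 6.37 ± 0.51 in HFD, CANA and CR, and Fkbp2 9.20 ± 0.21, 9.22 ± 0.22 and 9.17 ± 0.12 (SD, n = 4, 4 and 5). The group means of Fkbp2 differed by less than its spread within the groups.

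**Figure D2:**
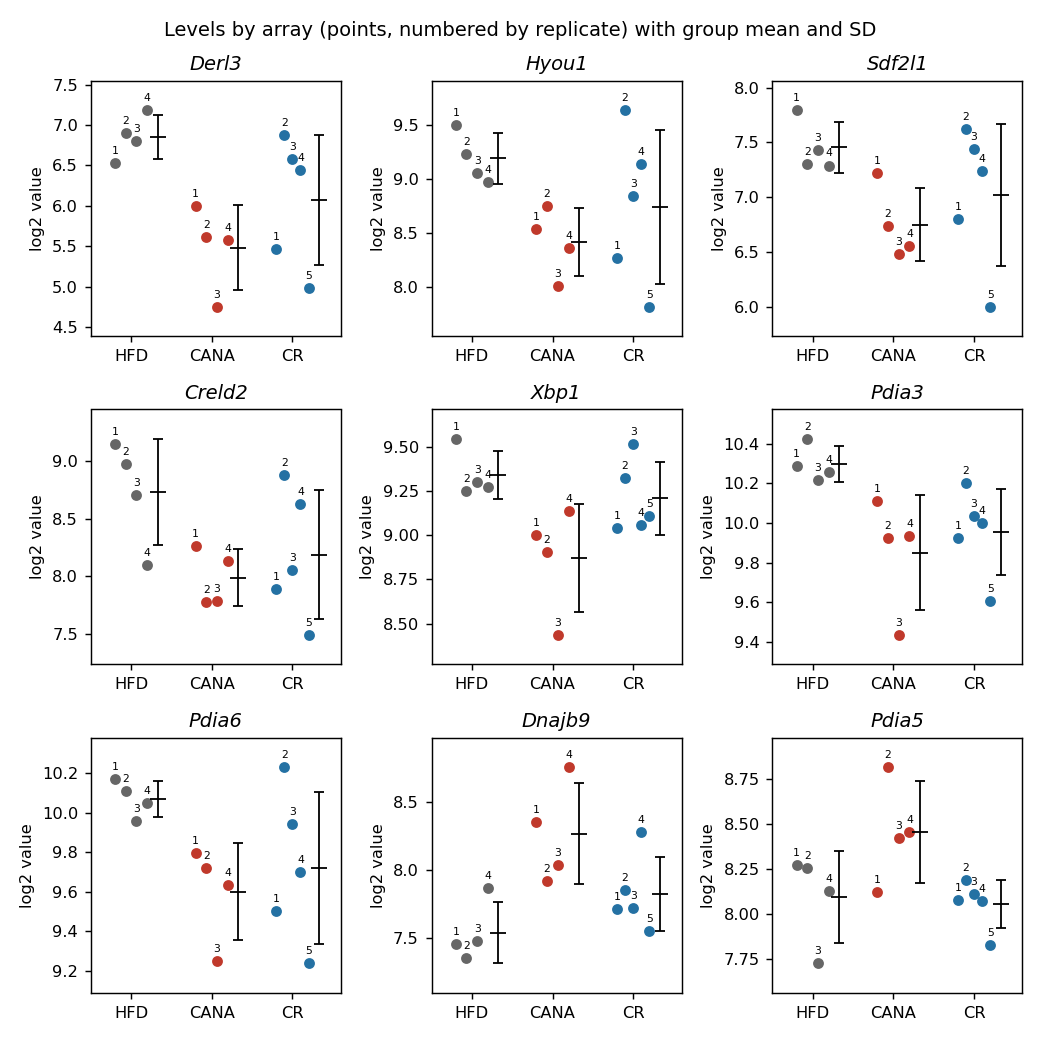
Log2 values of 9 genes by array (points, numbered by replicate) with the group mean and SD beside them, for HFD (4 arrays), CANA (4) and CR (5); each panel has its own scale. In Derl3, Hyou1, Sdf2l1, Xbp1, Pdia3 and Pdia6 all CANA points lie below all HFD points, in Dnajb9 above, and in CR replicates 1 and 5 often lie apart from 2, 3 and 4.

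All 8 genes of ER-associated degradation had a lower mean in CANA than in HFD, with a median of -0.22, though Herpud1 only by -0.005. Derl3 belongs to the derlins, membrane proteins of the complex that moves misfolded chains out of the ER, and is known as an inducible member of the family. It was at 6.53, 6.90, 6.81 and 7.18 in HFD, at 6.00, 5.61, 4.76 and 5.58 in CANA and at 5.46, 6.88, 6.58, 6.45 and 4.99 in CR. CANA and HFD did not overlap, while 3 CR arrays lay within or near the HFD range and CR replicates 1 and 5 within the CANA range. The difference CANA minus HFD was -1.37 (SE 0.35, 95% interval -2.10 to -0.63, limma adjusted p = 0.166). Over 29 alternative settings this difference ranged from -1.83 to -0.91 and its adjusted p from 0.0226 to 0.878.

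The other derlins had smaller differences. Derl2 was at 7.03, 7.02, 6.89 and 6.94 in HFD, at 6.75, 6.70, 6.60 and 6.68 in CANA and at 7.05, 7.02, 6.92, 6.91 and 6.53 in CR. Its CANA arrays lay below all HFD arrays, with a difference of -0.29 (SE 0.11, limma adjusted p = 0.407). A second, dimmer probe set of Derl2 had means of 4.14, 4.02 and 4.23 and a CANA minus HFD difference of -0.13. Derl1 averaged 9.41 ± 0.06, 9.18 ± 0.17 and 9.25 ± 0.14 in HFD, CANA and CR (SD, n = 4, 4 and 5).

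Edem1, a lectin-like protein that sends glycoproteins to degradation, was at 9.27, 9.25, 9.27 and 9.40 in HFD, at 9.07, 9.14, 9.09 and 9.09 in CANA and at 9.27, 9.36, 9.06, 9.58 and 9.28 in CR. The CANA arrays lay within a narrow range below all HFD arrays, and the difference was -0.20 (SE 0.10, limma adjusted p = 0.603). Its second probe set, with group means of 4.32, 4.34 and 4.26, had a difference of 0.01, so the probe sets disagree in sign. Edem2 averaged 7.66 ± 0.11, 7.52 ± 0.12 and 7.56 ± 0.23 (SD, n = 4, 4 and 5).

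Sel1l and Syvn1 encode the adaptor and the ubiquitin ligase HRD1 of the main degradation complex. Sel1l was at 8.79, 8.67, 9.03 and 8.85 in HFD, at 8.53, 8.50, 8.65 and 8.72 in CANA and at 8.59, 9.02, 8.76, 9.09 and 8.67 in CR. CANA replicate 4 lay above HFD replicate 2, and the difference was -0.24 (SE 0.12, limma adjusted p = 0.609). Syvn1 averaged 7.74 ± 0.17, 7.65 ± 0.06 and 7.62 ± 0.35. Herpud1, a membrane protein that joins this complex and is known to rise early in ER stress, averaged 11.48 ± 0.20, 11.47 ± 0.09 and 11.63 ± 0.16 (SD, n = 4, 4 and 5). The difference from HFD in CANA was -0.00 (95% interval -0.24 to 0.24), and its sign turned when arrays were centred on their medians. It also turned with the serial number as a covariate, within serial numbers 1 to 8, and without HFD replicate 3, HFD replicate 4 or CANA replicate 2.

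Sec61a1, the pore subunit of the Sec61 channel, was at 9.92, 9.66, 9.83 and 9.88 in HFD, at 9.66, 9.61, 9.49 and 9.70 in CANA and at 9.67, 10.04, 9.75, 9.86 and 9.71 in CR. HFD replicate 2 was level with CANA, and the difference of -0.21 (SE 0.10) had a limma adjusted p of 0.587. Sec61b ranged from 3.23 to 4.13 over the arrays.

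Among the regulators, the transcription factor gene Xbp1 was at 9.55, 9.25, 9.30 and 9.27 in HFD, at 9.00, 8.91, 8.44 and 9.14 in CANA and at 9.04, 9.33, 9.52, 9.06 and 9.11 in CR. Its CANA arrays lay below all HFD arrays, and the difference was -0.47 (SE 0.15, 95% interval -0.78 to -0.16, limma adjusted p = 0.274). The probe set gives the total transcript, and spliced and unspliced Xbp1 were not measured apart. The sensor gene Ern1 averaged 7.99 ± 0.27, 7.83 ± 0.21 and 7.93 ± 0.26, and Atf6 8.24 ± 0.17, 8.33 ± 0.09 and 8.36 ± 0.13 in HFD, CANA and CR (SD, n = 4, 4 and 5). Their CANA minus HFD intervals spanned zero, running from -0.50 to 0.17 and from -0.13 to 0.31.

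In all, 10 genes had every CANA array below every HFD array, where 2.77% of all genes did: Derl2, Derl3, Edem1, Hyou1, P4hb, Pdia3, Pdia6, Ppib, Sdf2l1 and Xbp1. They came from each role except the lectin cycle and the translocon. The 12 tested genes with an ERSE, ERSE-II or UPRE in the window all had a difference below zero (Herpud1 at -0.005), with a median of -0.31. Of the genes with a window and no such motif, 12 of 15 were below zero, with a median of -0.24. Of the 10 that did not overlap, Derl3 and Pdia6 hold an ERSE, and Hyou1 had no window to search.

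**Figure D3:**
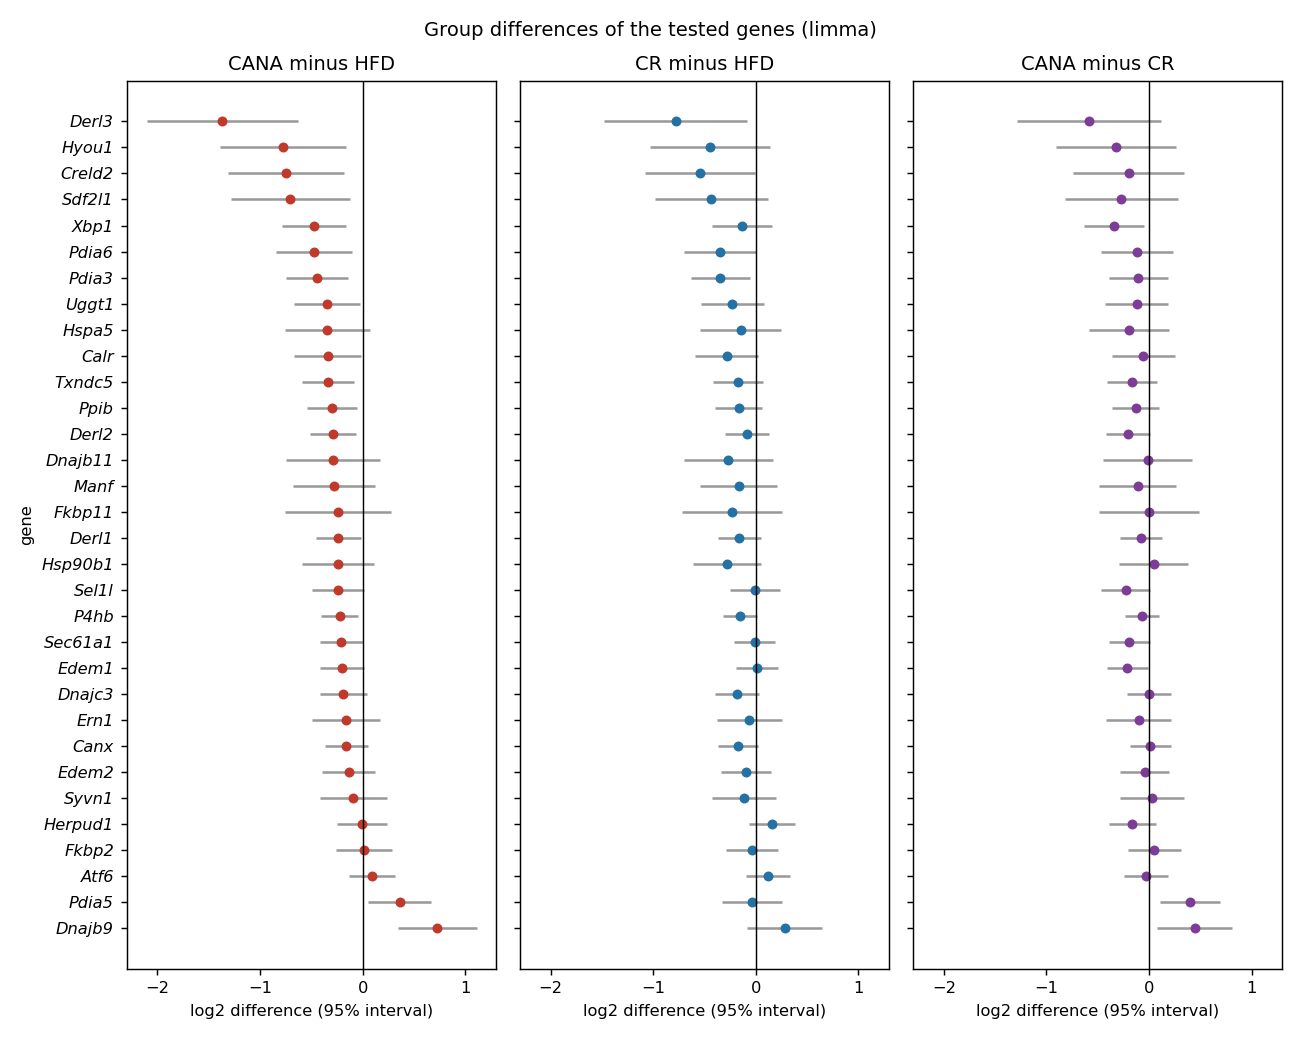
Differences of the 32 tested genes between groups on the log2 scale with 95% intervals from limma, for CANA minus HFD, CR minus HFD and CANA minus CR, in 1 order of genes. Most points lie left of zero in the first 2 panels, which share the HFD arrays; Derl3 is at -1.37 and -0.78, and Dnajb9 at 0.73 and 0.28.

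The second comparison sets CR against HFD, that is, weight matching by less food against the continued diet. The means were again lower for most of the set, by less: 28 of 32 genes were below zero, where 53.6% of all genes were, and the median was -0.16 against -0.01 over all genes. The 0 of 32 genes with a limma adjusted p under 0.05 stand beside 0% of all genes, and each adjusted p of the set was 0.999. At an unadjusted limma p under 0.05, Derl3, Creld2 and Pdia3 were lower, 3 of 32 where 2.01% of all genes were. By the same count 0 of 32 were higher, where 230 of the 13308 genes were. Both this and the first comparison use the same HFD arrays, so their values are given side by side and not counted as independent.

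Derl3 was at -0.78 in CR minus HFD (95% interval -1.48 to -0.08) and at -1.37 in CANA minus HFD. Creld2, at 7.89, 8.88, 8.05, 8.63 and 7.49 in CR, had a difference of -0.54 (SE 0.25). CR replicates 2 and 4 lay within the HFD range and CR replicate 5 below every other array. Pdia3 was at 9.93, 10.20, 10.04, 10.00 and 9.61 in CR, all below the 4 HFD arrays, and the difference was -0.34 (SE 0.13). P4hb was at 11.06, 11.04, 11.07, 11.03 and 10.98, also without overlap, with a difference of -0.16 (SE 0.08). These were the 2 genes of the set without overlap, where 0.721% of all genes were lower in this way.

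Pdia6 was at 9.50, 10.23, 9.94, 9.70 and 9.24 in CR, a range that spanned the whole HFD group, with a difference of -0.35 (SE 0.17). Calr had a difference of -0.29 (SE 0.15). Txndc5 was at 8.47, 8.56, 8.14, 8.55 and 8.20, and Ppib at 9.57, 9.72, 9.91, 9.79 and 9.42 in CR, with differences of -0.17 and -0.16. Pdia5, at 8.08, 8.19, 8.11, 8.07 and 7.83, lay with HFD, at -0.04. All limma adjusted p of these genes were 0.999.

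The CR arrays differed among themselves more than the HFD arrays did. The SD in CR was above that in HFD for 25 of 32 genes (78.12%), where 52.01% of all genes showed this. The median SD of the set was 0.157 in HFD, 0.216 in CANA and 0.226 in CR, while over all genes it was 0.154, 0.164 and 0.159. CR replicates 1 and 5 were the 2 lowest CR arrays in 21 of the 32 genes (65.62%) and in 10.33% of all genes. That pair was known from earlier results of these data, so this is a description. The spread was widest in Derl3 (SD 0.80), Hyou1 (0.71), Sdf2l1 (0.64) and Creld2 (0.56).

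On average over the set, the arrays deviated from the gene means by 0.26, 0.13, 0.15 and 0.06 in HFD, by -0.00, -0.07, -0.33 and -0.08 in CANA and by -0.16, 0.24, 0.06, 0.10 and -0.37 in CR. CR replicate 2 was thus as high as the HFD arrays and CR replicate 5 as low as CANA replicate 3. CR replicate 5 was the lowest of the 13 arrays for 12 genes and CANA replicate 3 for 11. Without CR replicates 1 and 5, 18 of 32 genes were below zero in CR minus HFD, with a median of -0.02. None was then lower at an unadjusted limma p under 0.05. That pair was known to be low, so leaving it out raises most CR means by construction, and these values are a description. Without CR replicate 5 alone the median was -0.10. The count lower at an unadjusted p was also 0 without CR replicate 5 alone or without HFD replicate 2, 2 without any of CR replicate 1, HFD replicates 1, 3 or 4 and CANA replicates 2 or 4, 5 without CANA replicate 3, and 10 without CR replicate 2. Within serial numbers 1 to 8 and 9 to 14 the CR minus HFD median was -0.16 and -0.19, and with the serial-number set as a term in the fit 8 genes were lower at an unadjusted p under 0.05.

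Lists of other genes also differed between the arrays. Of 18 genes known to be higher in male than in female liver, such as Mup20 and Cyp4a12a, CR replicates 1 and 5 deviated by -0.48 and -0.55 on average, and CANA replicate 3 by -0.33. The average was 0.17, 0.37 and 0.12 in the other CR arrays, in the other CANA arrays 0.15, 0.17 and -0.12, and in HFD 0.29, 0.16, 0.05 and -0.01. Markers of Kupffer cells and macrophages (9 genes, such as Clec4f and Cd5l) were at 0.33, 0.42, -0.59 and -0.04 in HFD. The same markers were at -0.16, 0.16, 0.15 and 0.36 in CANA and at -0.14, 0.16, -0.10, 0.15 and -0.70 in CR. Like the ER genes they were low in CR replicate 5, but unlike them they were low in HFD replicate 3 and not in CANA replicate 3. All 9 of them were above the dim limit, with a mean level per array of 6.24 to 7.25 in HFD, 6.67 to 7.19 in CANA and 6.13 to 6.99 in CR. Hepatocyte markers deviated by -0.07 to 0.07 over the 13 arrays and plasma and B cell markers by -0.07 to 0.08. Only 3 of the 10 plasma and B cell markers were above the dim limit, so their mean says little about these cells. The part of the male-biased genes and of the Kupffer, endothelial and stellate cell markers in the results was not tested.

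**Figure D4:**
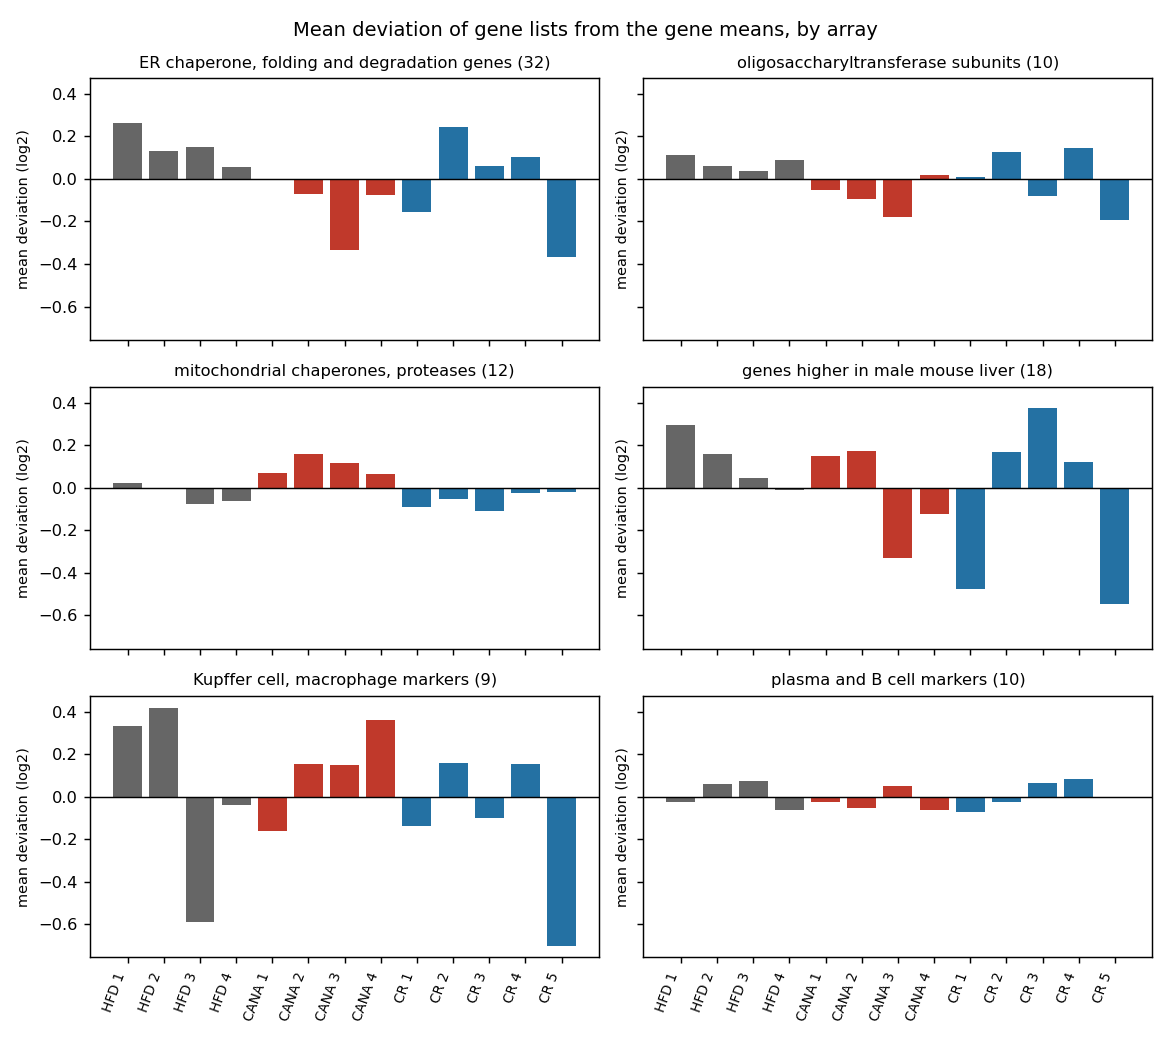
Mean deviation of 6 gene lists from the gene means on the log2 scale, 1 bar per array (HFD grey, CANA red, CR blue), with the number of genes in each title. The ER genes and the male-biased genes are both low in CANA replicate 3 and CR replicates 1 and 5, and mitochondrial chaperones are above zero in all CANA arrays. Plasma and B cell markers, of which only 3 of 10 are above the dim limit, stay within -0.07 and 0.08.

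The third comparison sets CANA against CR at matched weight, and it is also the test of how the first comparisons differ. The set had slightly lower means in CANA: 26 of 32 genes were below zero, where 51.2% of all genes were, with a median of -0.11 against -0.00 over all genes. None of the 32 had a limma adjusted p under 0.05, where 0.15% of all genes did, and the smallest adjusted p was 0.438. At an unadjusted limma p under 0.05, Xbp1 and Edem1 were lower, 2 of 32 where 4.32% of all genes were, and Pdia5 and Dnajb9 higher, where 4.11% were. No gene of the set had arrays without overlap, where 1.51% of all genes were lower and 189 of the 13308 genes higher in this way.

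Pdia5 was at 0.40 (SE 0.14, 95% interval 0.11 to 0.69) and Dnajb9 at 0.45 (SE 0.17, 95% interval 0.08 to 0.81) in CANA minus CR, with limma adjusted p of 0.438 and 0.511. Only CANA replicate 1 of Pdia5 lay within the CR range. For Dnajb9 CR replicate 4, at 8.28, lay among the CANA arrays. Xbp1 was at -0.34 (SE 0.14) and Edem1 at -0.21 (SE 0.10), with limma adjusted p of 0.536 and 0.572. Sec61a1 and Sel1l were at -0.19 (SE 0.09) and -0.23 (SE 0.11), with limma adjusted p of 0.601 and 0.607. Derl3 was at -0.59 with an interval from -1.29 to 0.11, and Hspa5 at -0.19 with an interval from -0.59 to 0.20, so these arrays leave room for differences in either direction.

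This comparison depended on single arrays. The median was -0.03 without CANA replicate 3, -0.04 without CR replicate 2, -0.07 without CR replicate 3, -0.17 without CANA replicate 1, -0.18 without CR replicate 5 and -0.25 without CR replicates 1 and 5. The count of genes lower at an unadjusted limma p under 0.05 was 0 without CANA replicate 3 or CR replicate 2 and 1 without CR replicate 4. It was 5 without CR replicate 1, 8 without CR replicate 5 and 11 without CR replicates 1 and 5. Those 2 are the low CR arrays of the set, so leaving them out raises most CR means by construction, and the values without them are a description. Within serial numbers 1 to 8 and 9 to 14 the median was -0.06 and -0.10.

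Neighbouring steps of the secretory pathway were read from lists named by function, and none of their genes passed a limma adjusted p of 0.05 in any comparison. The oligosaccharyltransferase, which attaches the sugar chains that the lectins read, had all 10 genes below zero in CANA minus HFD, with a median of -0.16, and 8 of 10 in CR minus HFD with a median of -0.06. Its subunit gene Stt3b was at -0.19 (SE 0.10) in CANA minus HFD without overlap, and Rpn1 at -0.23 (SE 0.10) in CR minus HFD. Of 18 other genes of translocation, signal peptide cleavage and the signal recognition particle, 15 were below zero in CANA minus HFD (median -0.14) and 15 in CR minus HFD (median -0.07). Spcs2, of the signal peptidase, was at -0.35 (SE 0.14) in CANA minus HFD, and Ssr3, of the translocon-associated complex, at -0.24 (SE 0.09) in CANA minus CR, each without overlap.

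Folding and degradation genes outside the set had medians nearer to zero. Of 24 other folding and oxidation genes, 16 were below zero in CANA minus HFD and 19 in CR minus HFD, with a median of -0.04 in each. Ero1b, an oxidase that drives disulfide formation, was at -0.45 (SE 0.20) in CANA minus HFD, and the cyclophilin gene Ppic at 0.32 (SE 0.13) in the same comparison. Of 17 other degradation genes, 8 were below zero in CANA minus HFD (median 0.01) and 12 in CR minus HFD (median -0.04). Ubxn4, a membrane protein that recruits the p97 ATPase, was at -0.25 (SE 0.09) in CANA minus HFD. In CANA minus CR the lectin gene Erlec1 was at 0.22 (SE 0.10). Of 15 other regulators of the unfolded protein response, among them the PERK gene Eif2ak3, Atf4 and Ddit3, 7 were below zero in CANA minus HFD and 5 in CR minus HFD, with a median of 0.04 in each. Atf6b and Wfs1 were at -0.30 (SE 0.13) and -0.19 (SE 0.09) in CANA minus CR.

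Of 20 genes of COPII vesicles and cargo transport, 16 were below zero in CANA minus HFD (median -0.06) and 13 in CR minus HFD (median -0.04). The cargo receptor gene Tmed2 was at -0.22 (SE 0.10) in CANA minus HFD, and Mcfd2 at -0.19 (SE 0.10) in CANA minus CR. Of 21 cytosolic chaperone genes, 15 were below zero in CANA minus HFD and 18 in CR minus HFD, with a median of -0.08 in each, so most of this list too had lower means in CR. Hspa4l was at -0.32 (SE 0.12) and Hsph1 at -0.44 (SE 0.19) in CANA minus HFD. Mitochondrial chaperones and proteases went the other way in CANA. Of 12 genes, 2 were below zero in CANA minus HFD (median 0.12) and 1 in CANA minus CR (median 0.12), while 7 were in CR minus HFD (median -0.02). Grpel2, a nucleotide exchange factor of mitochondrial Hsp70, was at 0.61 (SE 0.14, limma adjusted p = 0.165) and Hspd1, the mitochondrial Hsp60 chaperonin, at 0.29 (SE 0.08, limma adjusted p = 0.274) in CANA minus CR, both without overlap between the groups.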

How the data were processed

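Labelled cDNA of 13 liver samples was made from 250 ng of total RNA with the Affymetrix WT Plus procedure, per the labels' protocols, and read on mouse gene arrays. The deposited values are log2 RMA values of 41345 probe sets, made with Affymetrix Expression Console, per the submitters' processing notes; versions are not given in the sources used here. Of these probe sets, 23521 name exactly 1 gene symbol (23328 matched to a RefSeq table, GRCm38.p6, by Entrez identifier), 1814 name several and 16010 none. The brightest of the single-symbol probe sets was taken for each of 22180 genes (1082 had several). A filter at the 40th percentile of gene means removed dim genes and kept 13308, with means of at least 3.95. Array probes of gene families can share sequence, and the derlin, DnaJ and PDI genes are read with that limit.

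A linear model of group means, with no covariates, was fitted to the 13 arrays in limma 3.58.1 (R 4.3.3); residual degrees of freedom were 10 and prior ones 5.71. Calls were made at a two-sided Benjamini-Hochberg adjusted p under 0.05 over all genes tested. No 2 arrays were identical. Fold values are 2 to the power of the log2 difference.

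The genes of the set, the lists of other genes and the settings were chosen with earlier results of these data known. All genes of the set are accounted for. Values of every array are given for genes called in any comparison, for the 6 with the largest absolute moderated t in each comparison and for genes whose arrays do not overlap; of each other pathway list the 2 genes with the smallest p are named. Promoter motifs were searched with exact letters in RefSeq windows. Protein sequences were not analysed here. No set test was run.

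The fit was tested on simulated data with 200 of 13308 genes changed, 3 runs per comparison. Simulated noise was independent between genes and had the same spread in every group, so the shares called need not hold for the set. Of log2 changes of 0.5, 50.0% were called in CANA against HFD, 54.3% in CR against HFD and 55.3% in CANA against CR, and of changes of 1, 94.0, 94.7 and 96.0%.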

Additional observations from a re-analysis of the deposited data

Results flagged for a closer look

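The arrays of each group were examined for each gene of the set and for the mean over the set, 99 sets of arrays in all. In 3 of these, a single array stood apart from the rest of its group by Dixon's 95% criterion. By chance alone about 5% of such sets are flagged. Dnajb11, a co-chaperone of BiP, was at 7.26 in CANA replicate 3, with the nearest CANA array at 7.95. Derl2, of ER-associated degradation, was at 6.53 in CR replicate 5, with the nearest CR array at 6.91. Edem1, which sends glycoproteins to degradation, was at 9.40 in HFD replicate 4, with the nearest HFD array at 9.27.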

How the results depend on the processing

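The number of genes of the set called was 0 in each comparison under every setting run, except for CANA against HFD, where it was 1 when only the arrays compared were fitted (Derl3, limma adjusted p = 0.0488), 1 without CR replicates 1 and 5 (Derl3, adjusted p = 0.0226) and 1 with the replicate number as a block (Dnajb9, adjusted p = 0.0283). Over all settings the adjusted p ranged from 0.0226 to 0.878 for Derl3 and from 0.0283 to 0.488 for Dnajb9. The replicate numbers, which rise with the serial numbers within each group, were not taken to pair the samples. Same-numbered pairs did not all correlate above zero by a clear margin. The correlations were 0.025 to 0.296 in CANA and HFD, -0.15 to 0.116 in CR and HFD and -0.138 to 0.209 in CANA and CR. By replicate number, CR replicate 5 has no partner. By serial number, CANA, HFD and CR follow each other in 1 to 3, 4 to 6, 9 to 11 and 12 to 14. That order puts CR replicates 4 and 5 beside replicates 3 and 4 of the other groups. Pairing in that order was not tested, so these correlations and the block do not settle it. With the block the medians were -0.24, -0.10 and -0.18 in CANA against HFD, CR against HFD and CANA against CR, and 14, 0 and 8 genes were lower at an unadjusted p under 0.05, against 14, 3 and 2 without it.

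The count of genes below zero in CR against HFD, 28, was 18 without CR replicates 1 and 5. These are the low CR arrays of the set, so leaving them out raises most CR means by construction. Values without them, the call of Derl3 among them, are a description. When single arrays were left out, the counts below zero were 27 to 29, 21 to 29 and 19 to 29 in the 3 comparisons, with medians of -0.29 to -0.18, -0.20 to -0.10 and -0.18 to -0.03. Of 725 values of single genes under the alternatives, 722 kept their sign and their side of the threshold, and the other 3 were the calls above. The count of all genes called in CANA against HFD, 22, ranged from 3 (without CANA replicate 3) to 38 (without CANA replicate 1) when an array was left out. Centring, quantile normalization and the filters changed no count of calls in the set. At this number of arrays, a log2 change of 0.5 was missed in a large share of simulated cases, and most differences of the set are smaller. The simulated noise had the same spread in every group, unlike this set, so the simulated shares need not hold for it.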
